A study of Mus musculus with 18 samples.

Results

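The effect of ibrutinib was examined in mouse CD8+ T cells that had met their antigen once and were then rested. All libraries of single peptide stimulated cells were taken by their labels, which gave 9 of the 18 libraries of the series, 4 with 1 µM ibrutinib and 5 with its solvent DMSO. The cells were OT-I T cells, whose transgenic receptor recognizes an ovalbumin (OVA) peptide, isolated from spleens by removal of other cells. They were given peptide for the first 48 hours only, and drug or DMSO was present from day 5 to day 8, when live cells were lysed for mRNA sequencing. The other 9 libraries were repeat peptide stimulated cells, kept with peptide until day 8 and given the same treatments. The labels list every library as wild type, but their genotype entry reads INHB-1 left over for 1 experiment (A), names a *btk* knockout for 4 (B to E) and reads PKC igoni-2 for the last (F). As the methods describe no *btk* deficient cells in this RNA-seq, that entry was read as the name of an experiment. A, B, C and D each gave 1 DMSO and 1 ibrutinib library of each kind of stimulation, E a repeat peptide library with ibrutinib alone, and F a single peptide library with DMSO alone. Age was not given in the sources used here, and nothing in them says whether libraries came from separate mice, so p-values measure only the spread between these libraries.

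Ibrutinib binds a cysteine near the ATP site of Bruton tyrosine kinase (BTK), the Tec family kinase of B cells. When the T cell receptor (TCR) is engaged, LCK and ZAP70 lead to phospholipase C gamma, and calcium and kinase signals then switch on early genes such as the *Nr4a* and *Egr* families, *Irf4* and *Tnfrsf9*. Antigen stimulated CD8+ T cells divide, release chemokines and interferon gamma and carry inhibitory receptors, and interferon induces guanylate binding proteins and immunity related GTPases.

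*Btk* itself (chromosome X of GRCm38 from 134542336 to 134583570, minus strand) had 0 counts in 8 of the 9 libraries and 2 counts in the ibrutinib library of experiment A, so its counts cannot check the wild type label. *Cd8a* stood at 459 to 677 TPM with DMSO and 445 to 655 TPM with ibrutinib, while *Cd4* was at or below 0.17 TPM and the B cell markers *Ms4a1*, *Pax5* and *Blnk* had at most 6 counts. Other B cell markers were present in all 9 libraries, the *Ighm* constant region at 349 to 527 TPM, *Ighd* at 2.06 to 8.09 TPM and *Cd79b* at 3.12 to 7.08 TPM. Experiments also differed in sex: the 8 libraries of A and C had 25195 to 74138 counts of *Xist* and none of 4 Y-linked genes, and the other 10 of the series had at most 13 counts of *Xist* and 2073 to 4979 of *Ddx3y*. Both experiment C libraries had 1493 to 1539 counts of *Fos* against 10 to 66 in the other 7. Summed markers of NK cells, B cells (without *Ighm* and *Ighd*) and CD4+ or regulatory T cells overlapped between the groups and were lower with ibrutinib in 1, 2 and 2 of 4 experiments. Mitochondrial transcripts (331800 to 628100 normalized counts with DMSO and 441300 to 595800 with ibrutinib) and erythroid and platelet markers (26.76 to 90.74 and 41.73 to 152) overlapped too but were higher with ibrutinib in all 4 experiments, and *mt-Co3* was called higher with the experiment as a block in the fit (0.74, edgeR adjusted p = 0.0409). Their part in the results was not tested. The total expected count was 23445922 to 34813285 per library with DMSO and 30844731 to 34852484 with ibrutinib.

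Principal components were computed from 500 genes of high variance. PC1 of the 9 libraries (32.9% of the variance) followed *Xist* and Y-linked genes and did not separate the treatments (exact permutation test, two-sided, p = 0.73). PC3 (15.9%) did, with scores of -22 to -2.92 with DMSO and 5.79 to 17.5 with ibrutinib (exact permutation test, p = 0.00794, the smallest that these group sizes allow, and 0.0238 adjusted over 3 components). *Ccl3*, *Lif*, *Xcl1* and *Ccl4* were among the genes with the largest weights on its DMSO side. So were the Y-linked *Ddx3y* and *Eif2s3y*, and *Xist* had the largest weight on its ibrutinib side. The separation on PC3 did not pass the threshold with more genes, rlog values or *Xist* and Y-linked genes removed (adjusted p from 0.0952 to 0.19). With 1 library left out a component could not pass it alone. The smallest adjusted p is then 0.0857 or 0.0536, unless several components reach the smallest p together. That smallest value was reached by PC3 in 3 of these 9 runs and by PC2 in another 2.

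**Figure D1:**
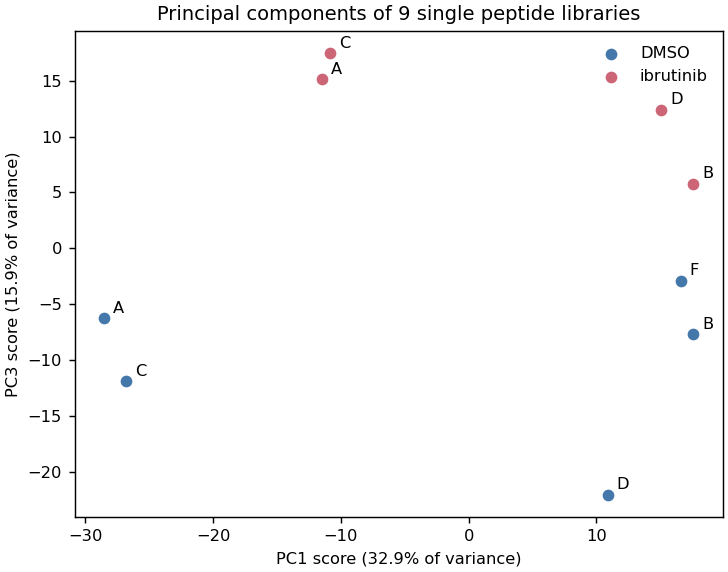
Scores of the 9 single peptide stimulated libraries on principal components PC1 (x) and PC3 (y), with the share of variance on each axis and the letter of the experiment beside each point. Experiments A and C lie at negative PC1 scores, and ibrutinib libraries lie at 5.79 to 17.5 on PC3, above all DMSO libraries.

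Most genes called with ibrutinib in these rested cells were lower. Of 12255 genes tested, 373 were called different between ibrutinib and DMSO (3.04%), 43 higher (0.351%) and 330 lower (2.69%). A call required a Benjamini-Hochberg adjusted p under 0.05 in edgeR's quasi-likelihood test, a mean normalized count of at least 50 over the 18 libraries and an absolute log2 fold change above 0.2. Normalized counts are read counts scaled to the mean library size, and log2 fold changes are ibrutinib against DMSO. The median log2 fold change was -1.13 among the genes called lower and 0.50 among those called higher, against 0.01 over all tested genes. A fall of over 1 log2 unit was found for 201 genes and a rise of that size for *Nipa1* alone. With the experiment as a block in the fit 1114 genes were called (9.09%), 340 higher and 774 lower, and 372 of the 373 were among them. In the 8 libraries of experiments A to D alone with the block the split was more even, with 843 higher and 1112 lower, and of all tested genes 2426 were higher and 2110 lower in each of the 4 experiments. The count was lower without ibrutinib A (131), ibrutinib D (152), DMSO C (198), ibrutinib B (205) or DMSO D (239). In bulk RNA, fewer cells of a kind and less RNA in each cell cannot be told apart. Values by library are given below in the order A, B, C, D and F for DMSO and A, B, C and D for ibrutinib.

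**Figure D2:**
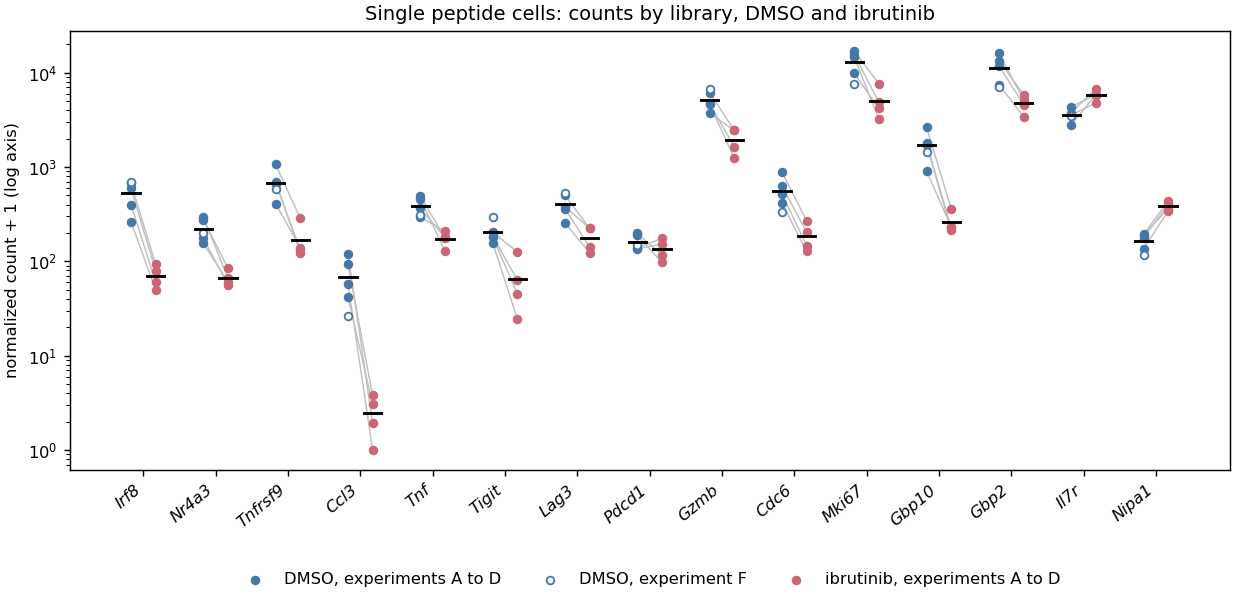
Normalized count plus 1 (y, log axis) of 15 genes (x) in each single peptide stimulated library, with DMSO in blue (experiment F open) and ibrutinib in red. Grey lines join libraries of the same experiment and black bars are group means. *Ccl3* fell furthest, from 25.56 to 118.6 normalized counts to at most 2.782, *Pdcd1* overlapped between the groups, and *Il7r* and *Nipa1* were higher with ibrutinib.

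Some genes of the response to antigen were lower with ibrutinib. Of 35 TCR response genes 8 fell (22.9%, against 2.69% of all tested genes) and none rose. The 8 were *Xcl1*, *Irf8*, *Tnfrsf9*, *Nr4a3*, *Egr3*, *Nr4a1*, *Nr4a2* and *Irf4*. The list's median log2 fold change was -0.41 and 29 of its 35 genes were below 0, against 47.8% of all tested genes. *Irf8*, an interferon regulatory factor that T cells induce on activation, had the smallest p of the comparison. Its normalized counts were 591.6, 261.8, 671.7, 398 and 700.4 with DMSO and 78.69, 48.71, 91.81 and 59.57 with ibrutinib, so every ibrutinib library lay below every DMSO library. This is a fall of 2.91 on the log2 scale (SE 0.28, adjusted p = 5.03e-05).

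The *Nr4a* genes encode orphan nuclear receptors that report recent TCR signaling, and all 3 fell. *Nr4a3* had 293, 174.2, 276.6, 153.7 and 199.4 normalized counts with DMSO and 65.42, 55.26, 83.46 and 59.57 with ibrutinib (log2 fold change -1.73, SE 0.25, adjusted p = 0.00185). *Nr4a2* (-1.14, adjusted p = 0.00247) and *Nr4a1* (-1.50, adjusted p = 0.0243) also fell without overlap between the groups. The call of *Nr4a1* was lost without DMSO C, ibrutinib D or ibrutinib A (highest adjusted p = 0.108, without ibrutinib A). *Tnfrsf9*, which encodes the costimulatory receptor 4-1BB, had 701.1, 407.8, 1065, 667.4 and 580.2 normalized counts with DMSO against 122.3, 137.7, 283.8 and 131.5, again without overlap (-2.02, SE 0.36, adjusted p = 0.00592). *Irf4*, a transcription factor graded by TCR signal strength, fell by 0.95 (adjusted p = 0.0107), a call lost without ibrutinib A or D (adjusted p at most 0.0562). In the DMSO libraries these genes were far below repeat peptide stimulated cells with DMSO, where *Irf8* stood at 3771 ± 629.5 and *Tnfrsf9* at 8696 ± 3257 normalized counts (SD, n = 4).

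Other early genes were not called. *Egr1* had 516.4, 367.8, 2006, 753.5 and 400 normalized counts with DMSO and 223.8, 396.2, 831.8 and 314.3 with ibrutinib, and the groups overlapped (-0.87, adjusted p = 0.435). The highest value of each group was that of experiment C. *Myc* (-0.06, adjusted p = 0.904) and *Nfatc1* (0.08, adjusted p = 0.864) were not called either.

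Chemokines and cytokines of activated T cells fell with these genes. Of 18 tested members of the cytokine and chemokine list 6 fell (33.3%, against 2.69% of all tested genes) and none rose (median log2 fold change -1.002). With the block 7 fell and 1 rose, where 6.32% and 2.77% of all tested genes did. The list's summed counts were lower with ibrutinib in 0 of 4 experiments. The median was the same with *Ccl1*, which had no count in any ibrutinib library, set to its bound of at least 8.12-fold lower, from a floor of 3 counts over the group. *Ccl3* (MIP-1 alpha) had 118.6, 56.25, 91.76, 40.73 and 25.56 normalized counts with DMSO and 0.9481, 0, 2.782 and 2.054 with ibrutinib. The ratio of summed counts was 0.0219 (95% exact interval 0.00797 to 0.0482, counting error only, from 6 ibrutinib counts), and the edgeR adjusted p was 0.000277. *Ccl4* (MIP-1 beta) averaged 58.84 ± 27.96 (SD, n = 5) and 7.086 ± 5.528 (SD, n = 4) normalized counts (-3.02, SE 0.49, adjusted p = 0.00355).

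*Xcl1*, a chemokine that attracts cross-presenting dendritic cells, had 424.1, 177.4, 713.7, 444.3 and 247.9 normalized counts with DMSO and 14.22, 23.42, 113.1 and 54.43 with ibrutinib. The groups did not overlap (-2.96, SE 0.55, adjusted p = 0.00677). *Tnf* fell from 383.8 ± 88.93 to 172.5 ± 32.92 (SD; -1.15, adjusted p = 0.00655) and *Tnfsf14*, which encodes LIGHT, from 227.9 ± 43.09 to 115.9 ± 18.06 (SD; -0.97, adjusted p = 0.00614). *Ifng* was low, with 91.2, 5.409, 52.25, 30.55 and 51.12 normalized counts against 1.896, 2.81, 13.91 and 13.35, and the DMSO library of experiment B lay among the ibrutinib libraries. Its call (-2.51, adjusted p = 0.0494) was lost without any 1 library other than DMSO B (highest adjusted p = 0.18, without ibrutinib A). *Ccl3*, *Ccl4* and *Ifng* passed the mean count threshold only through the repeat peptide libraries: over the 9 single peptide libraries alone, 3 of the 6 genes passed it. *Ccl5*, at 2093 normalized counts with DMSO and 2354 with ibrutinib, was not called (0.17, adjusted p = 0.925).

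Myeloid cells also express *Irf8*, *Ccl3* and *Ccl4*, so 20 myeloid and dendritic markers were counted. Their sum was 177.4 to 442.3 normalized counts with DMSO and 101.7 to 310 with ibrutinib, lower in 4 of 4 experiments. The sum of the 8 tested did not overlap, at 168.8 to 281.6 with DMSO and 77.04 to 161.1 with ibrutinib, also lower in 4 of 4. Of these 8 genes 7 had a log2 fold change below 0 (median -0.70), and none was called. *Lyz2* had 113 and 107 counts in the libraries of experiment A and at most 1 in the other 7, and *Ly6g*, *S100a8* and *S100a9* had none. *Csf1r* and *Adgre1* had at most 7 counts in any library. The part of these cells in the result was not tested.

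Inhibitory receptors, which restrain T cells and accumulate in exhaustion, fell in part. Of 17 tested 4 fell (23.5%, against 2.69% of all tested genes) and none rose (median -0.43). By experiment the median was -0.45 in A, -0.18 in B, 0.00 in C and -0.20 in D. With the block 4 fell and 1 rose, where 6.32% and 2.77% of all tested genes did. The list's summed counts were lower with ibrutinib in 0 of 4 experiments. *Tigit* had 180.1, 202.3, 186.1, 157.4 and 292.7 normalized counts with DMSO and 44.56, 125.5, 62.13 and 23.62 with ibrutinib, without overlap (-1.66, SE 0.31, adjusted p = 0.00703). *Lag3* had 359.1, 377.5, 500.9, 254.5 and 530.4 against 141.3, 223.9, 222.6 and 122.2, also without overlap (-1.18, SE 0.22, adjusted p = 0.00698). *Cd274*, which encodes the PD-1 ligand PD-L1, fell from 1208 ± 161.2 (SD, n = 5) to 658.3 ± 32.09 (SD, n = 4; -0.88, adjusted p = 0.00185).

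*Cd160* fell by 0.77 (adjusted p = 0.0341), a call lost without any 1 library other than DMSO B or ibrutinib C (highest adjusted p = 0.144, without ibrutinib A). *Pdcd1*, which encodes PD-1, had 197.2, 137.4, 135.1, 187 and 148.3 normalized counts with DMSO and 115.7, 174.2, 151.2 and 96.54 with ibrutinib. These values overlapped and were not called (-0.26, SE 0.19, adjusted p = 0.633). *Pdcd1* was low in all of them, against 9950 ± 2027 (SD, n = 4) in the DMSO group of repeat peptide stimulation. There ibrutinib lowered it by 1.17 on the log2 scale (adjusted p = 0.000412), and the difference between the ibrutinib effects was not called (adjusted p = 0.099). *Havcr2* (Tim-3) had at most 15.74 normalized counts in any single peptide library and *Ctla4* a log2 fold change of 0.40 (adjusted p = 0.34).

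Among 19 tested effector and exhaustion factors *Irf4* fell and *Runx1* rose (10.5% of the list, against 3.04% of all tested genes). *Tox*, which maintains the exhausted state, had 270.2, 325.6, 272.7, 253.6 and 283.7 normalized counts with DMSO against 138.4, 217.3, 235.5 and 139.7, without overlap, and was called only with the experiment as a block (-0.62, adjusted p = 0.0743, and 0.0111 with the block). *Tbx21* (T-bet) behaved likewise (-0.75, adjusted p = 0.0599, and 0.00136 with the block), whereas *Batf* (-0.18, adjusted p = 0.789) was called in neither fit. *Runx1* averaged 239.5 ± 78.62 (SD, n = 5) and 445.3 ± 80.58 (SD, n = 4; 0.89, adjusted p = 0.0366), a call lost without any 1 library other than DMSO F or ibrutinib C (highest adjusted p = 0.145, without ibrutinib D). With an offset for effective transcript length its log2 fold change was -0.01. *Gzmb*, which encodes the main granule protease granzyme B, had 4665, 3745, 6139, 4661 and 6722 normalized counts with DMSO and 1236, 2445, 2459 and 1646 with ibrutinib (-1.41, SE 0.26, adjusted p = 0.00677). It was the only 1 of 18 granule genes called without the block (5.56%, against 3.04% of all tested genes).

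**Figure D3:**
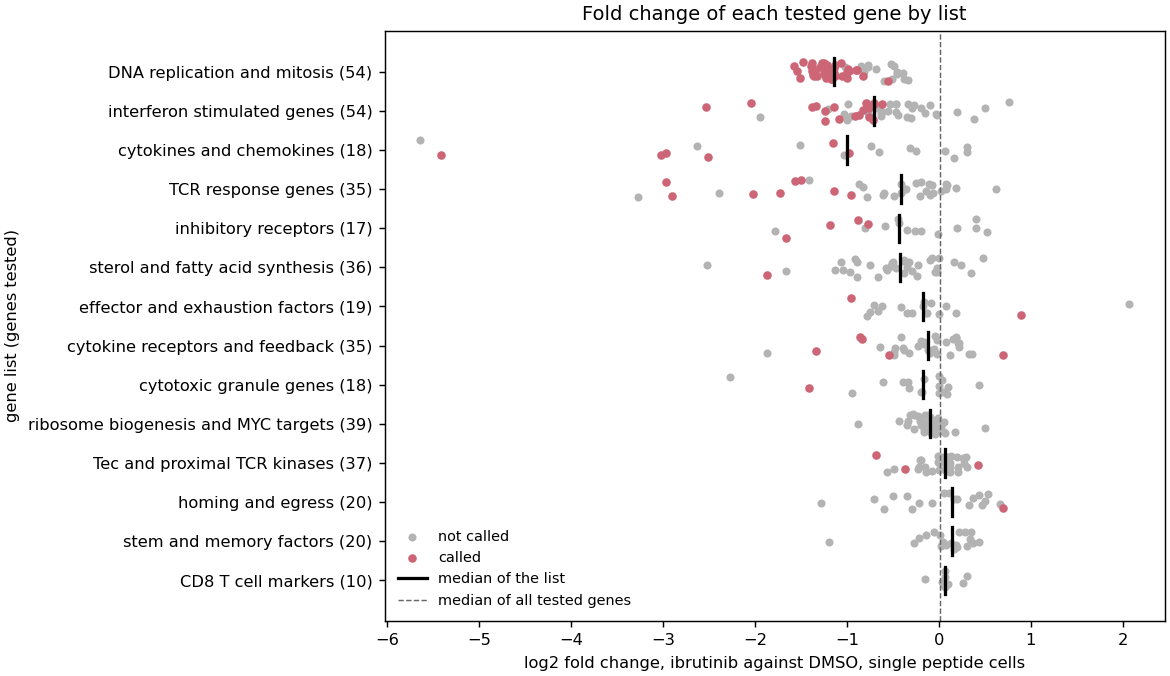
Fitted log2 fold change (x) of every tested gene in 14 of the gene lists (y, with the number of tested genes), ibrutinib against DMSO in single peptide stimulated cells. Red points were called, black bars are list medians and the dashed line is the median of all tested genes. The DNA replication and mitosis list lies entirely below 0. Medians lie left of the dashed line for most lists, and right of it for TCR signaling (Tec and proximal TCR kinases), homing, stem and memory, and CD8 marker genes.

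Genes of cell division were lower throughout. Of 54 genes of DNA replication and mitosis 39 fell (72.2%, against 2.69% of all tested genes) and none rose. All 54 were lower with ibrutinib in each of the 4 experiments, which held for 2110 of all 12255 tested genes. The list's median was -1.14 in the fit, and by experiment it was -1.50 in A, -0.89 in B, -0.98 in C and -1.53 in D. *Mki67*, the proliferation antigen Ki-67, had 14590, 9858, 16940, 15540 and 7516 normalized counts with DMSO and 3219, 4185, 7638 and 4866 with ibrutinib. Only the highest ibrutinib library (C) reached above the lowest DMSO library (F), and the fall was 1.37 (SE 0.27, adjusted p = 0.00899). *Cdc6*, which loads the replicative helicase, had 516.4, 415.4, 885.8, 623.9 and 333.6 against 146, 126.5, 268 and 204.4, without overlap (-1.57, SE 0.30, adjusted p = 0.00706). *Cenpe*, a kinetochore motor (-1.51, adjusted p = 0.00355), *Mcm10*, a replication initiation factor (-1.54, adjusted p = 0.00672), and *Ccnb1*, the mitotic cyclin B1 (-1.18, adjusted p = 0.0109), fell without overlap too.

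The count of 39 was 53 with the block, where 6.32% of all tested genes were called lower. It fell to 12 without ibrutinib A, 14 without ibrutinib B, 15 without ibrutinib D, 18 without DMSO C and 20 without DMSO D. It was 12 in a fit of the 9 single peptide libraries alone and 20 with all genes above a count of 0 tested. *Cdk1*, the kinase that drives mitosis, was among the genes that then dropped out (-1.06, adjusted p = 0.0485, and up to 0.171 without ibrutinib A). In repeat peptide stimulated cells the list's median was -0.41, 2 of the 54 fell and none rose, and the difference between the ibrutinib effects was called for none of the 54. With the experiment as a block it was called for 27, all more negative in single peptide cells, among them *Mki67* (adjusted p = 0.351, and 0.0111 with the block), *Cdc6* (0.304 and 0.00475), *Cenpe* (0.204 and 0.00105) and *Mcm10* (0.278 and 0.00345).

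Promoters of 3 of these genes are shown, since so many members fell together, with motifs that many cell cycle genes are known to hold. All 3 held a CCAAT box, *Mki67* and *Cdk1* a CHR and *Cdk1* alone an E2F site in the stretch shown. Each is the 150 bases before the annotated start, on the gene's strand, from RefSeq on GRCm38.p6, with *Mki67* at chr7:135716380-135716529, *Ccnb1* at chr13:100786487-100786636 and *Cdk1* at chr10:69352913-69353062, all on the minus strand. Capitals mark the CCAAT box (CCAAT), the cell cycle homology region (CHR, TTTGAA) and the E2F site (TTTCCCGC, TTTCGCGC, TTTGCCGC or TTTGGCGC), on either strand.
Mki67: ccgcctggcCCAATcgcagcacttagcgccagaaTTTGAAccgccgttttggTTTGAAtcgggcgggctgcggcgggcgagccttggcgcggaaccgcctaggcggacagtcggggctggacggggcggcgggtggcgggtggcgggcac
Ccnb1: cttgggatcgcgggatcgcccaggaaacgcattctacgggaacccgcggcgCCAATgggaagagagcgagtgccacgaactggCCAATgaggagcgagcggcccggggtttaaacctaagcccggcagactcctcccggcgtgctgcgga
Cdk1: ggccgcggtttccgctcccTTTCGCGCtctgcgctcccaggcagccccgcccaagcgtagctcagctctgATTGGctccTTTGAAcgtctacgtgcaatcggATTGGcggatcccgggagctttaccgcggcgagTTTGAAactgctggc
In windows from 250 bases before to 50 after the start, found for 43 of the 54 genes, 79.1% held a CCAAT box, 46.5% a CHR and 25.6% an E2F site. Among the 9529 tested genes with a window these shares were 43.2%, 14.4% and 4.93%. Among 257 of the 330 genes called lower they were 54.9%, 33.5% and 11.3%. The shares describe letters in a window and not binding.

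Interferon stimulated genes fell as well, and part of them moved the opposite way in repeat peptide stimulated cells. Of 54 tested 18 fell (33.3%, against 2.69% of all tested genes) and none rose (median -0.70). In all 4 experiments 43 were lower, as were 2110 of all 12255 tested genes. Among those called were *Irf1* and *Irf7*, 6 guanylate binding proteins, the GTPases *Iigp1*, *Igtp* and *Irgm1*, and the antiviral or induced genes *Oasl2*, *Mx1*, *Eif2ak2*, *Zbp1*, *Xaf1* and *Rtp4*. The groups did not overlap for 22 of the 54, against 6.36% of all tested genes. The 18 called were among these 22, and 254 of all 373 called genes did not overlap either. With the block 34 fell, where 6.32% of all tested genes did, and without ibrutinib B 9 fell. The calls of *Gbp4*, *Gbp5*, *Gbp7*, *Irf1*, *Irf7*, *Mx1*, *Oasl2*, *Rtp4* and *Zbp1* were each lost without at least 1 library (highest adjusted p = 0.15, for *Gbp4* without ibrutinib D).

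The promoters of *Gbp2* (chr3:142620513-142620662, plus strand), *Igtp* (chr11:58199406-58199555, plus strand) and *Irgm1* (chr11:48871421-48871570, minus strand) are shown because their effects could be compared between the 2 kinds of stimulation. Capitals mark the core of the interferon stimulated response element (ISRE, GAAANNGAAA) and of the gamma activated site (GAS, TTCNNNGAA), where N is any base, on either strand and with overlaps allowed.
Gbp2: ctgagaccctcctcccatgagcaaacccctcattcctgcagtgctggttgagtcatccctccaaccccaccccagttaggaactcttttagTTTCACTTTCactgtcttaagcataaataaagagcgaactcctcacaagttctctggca
Igtp: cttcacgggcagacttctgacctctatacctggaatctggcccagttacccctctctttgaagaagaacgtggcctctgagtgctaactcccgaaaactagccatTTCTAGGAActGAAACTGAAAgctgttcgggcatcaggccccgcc
Irgm1: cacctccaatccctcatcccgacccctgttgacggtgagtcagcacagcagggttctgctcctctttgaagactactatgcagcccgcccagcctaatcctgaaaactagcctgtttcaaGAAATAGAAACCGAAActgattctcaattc
The ISRE core was found in 62.5% and the GAS core in 32.5% of the 40 list members with a RefSeq window, against 3.82% and 8.23% of all tested genes with one. Among genes called lower they were in 7.39% and 12.1%.

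*Gbp2*, a guanylate binding protein, had 13460, 7480, 16160, 11870 and 7068 normalized counts with DMSO and 5864, 3425, 5172 and 4589 with ibrutinib (-1.24, SE 0.23, adjusted p = 0.00655). In repeat peptide stimulated cells it rose by 1.59 (adjusted p = 0.000376), from 3028 ± 496.4 (SD, n = 4) to 9092 ± 1656 (SD, n = 5), and the effects differed (interaction -2.82, adjusted p = 0.000186). *Iigp1*, an immunity related GTPase, had 4882, 3720, 4535, 4956 and 2470 with DMSO against 1328, 763.4, 944 and 949 in single peptide cells (-2.05, adjusted p = 0.0019). It rose by 1.66 in repeat peptide cells (adjusted p = 0.00272; interaction -3.71, adjusted p = 0.000186). *Igtp* fell by 1.13 (adjusted p = 0.00137), rose by 0.85 in repeat peptide cells (adjusted p = 0.00281) and differed between them (interaction -1.98, adjusted p = 0.000186). *Irgm1* fell by 0.91 (adjusted p = 0.00655), was not called in repeat peptide cells (0.33, adjusted p = 0.252) and differed too (interaction -1.25, adjusted p = 0.00944).

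Across all genes, ibrutinib was called for 726 in repeat peptide stimulated cells (5.92%) and its 2 effects differed for 154 (1.26%), 26 more positive and 128 more negative in single peptide cells. The 154 became 679 with the block, 84 without the DMSO library of repeat peptide cells of experiment C and 89 without single peptide ibrutinib D. Of the 54 interferon stimulated genes 16 differed, all more negative in single peptide cells, among them 6 guanylate binding proteins, *Iigp1*, *Igtp*, *Irgm1*, *Irgm2*, *Tgtp1*, *Tgtp2*, *Ifi47*, *Irf1* and *Zbp1*. With the block 20 differed, all in that direction. Among the 16, *Irgm2*, *Ifi47*, *Tgtp1* and *Tgtp2* were called lower in single peptide cells only with the block (adjusted p from 0.000295 to 0.0104). In repeat peptide cells the list's median was -0.07, with 10 genes higher and 5 lower. *Irf7* fell in both settings (-0.79 and -0.72) and its effects were not called different (adjusted p = 0.966), and neither were those of *Eif2ak2* (-0.71 and -0.57, adjusted p = 0.894). *Gbp6* and *Gbp10*, *Tgtp1* and *Tgtp2*, and *Iigp1* and its relative *Gm4951* are close relatives between which shared reads were divided by estimate, so the split within each is uncertain.

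**Figure D4:**
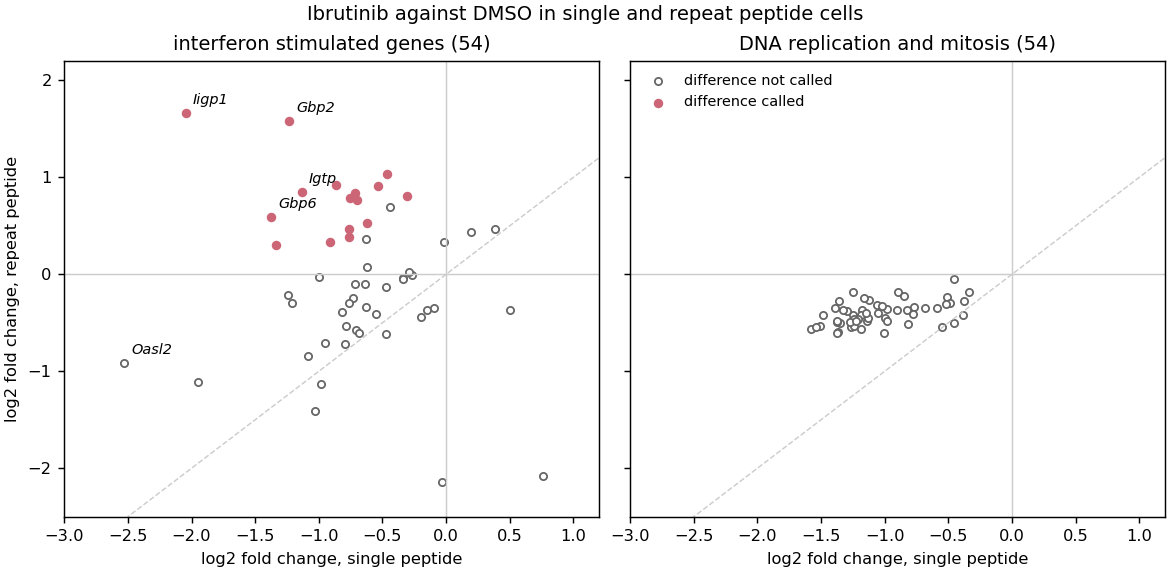
Log2 fold change with ibrutinib in single (x) and repeat (y) peptide stimulated cells for 54 interferon stimulated genes (left) and 54 DNA replication and mitosis genes (right). Red points are genes whose effects were called different, and the dashed line marks equal effects. The 16 red points, among them *Gbp2* and *Iigp1*, are below 0 in single and above 0 in repeat peptide cells. The right panel has none in this fit without the experiment as a block, with which 20 and 27 genes were called.

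The 373 genes called in single peptide cells were chosen by an effect that is part of the interaction, and 330 of them were lower. This sets in part the share and direction of those that differed. Of the 373, 45 had effects called different from those in repeat peptide cells, against 1.26% of all tested genes, and 43 of the 45 were lower. They included *Ccl3* (interaction adjusted p = 0.00192), *Xcl1* (adjusted p = 0.0101), *Irf8* (adjusted p = 0.0106) and *Cd274* (adjusted p = 0.00133). *Xcl1* had a log2 fold change of 0.78 in repeat peptide cells, which was not called there (adjusted p = 0.341), while *Irf8* fell in both, by 2.91 and 1.02. Effects were not called different for *Nr4a3* (adjusted p = 0.748), *Lag3* (adjusted p = 0.854), *Tigit* (adjusted p = 0.672) and *Gzmb* (adjusted p = 0.859), all of which fell in both settings. The perforin gene *Prf1* differed the other way (interaction 1.91, adjusted p = 0.0419). It was called higher in single peptide cells only with the block (0.43, adjusted p = 0.641, and 0.0238 with the block), and fell by 1.47 in repeat peptide cells (adjusted p = 0.00849).

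Few genes rose, and 1 of them by more than 1 log2 unit. *Nipa1*, which encodes a magnesium transporter, had 191.5, 135.2, 192.4, 176.8 and 116.3 normalized counts with DMSO and 360.3, 340.9, 435.9 and 402.6 with ibrutinib, without overlap (1.24, SE 0.17, adjusted p = 0.00137). *Il7r*, the receptor chain for the survival cytokine IL-7, had 3761, 4362, 3558, 2808 and 3453 against 6789, 5828, 4798 and 5862 (0.70, SE 0.14, adjusted p = 0.00899), a call lost without ibrutinib A (adjusted p = 0.0633). *Tsc22d3*, the glucocorticoid induced leucine zipper, rose by 0.80 (adjusted p = 0.00235) and the polarity gene *Pard6b* by 0.93 (adjusted p = 0.00672). *Il7r* was the only gene of the homing list called higher without the block. Of the list's 20 tested genes 9 were higher and 4 lower in all 4 experiments, against 2426 and 2110 of all 12255. Groups did not overlap for 6 of the 20, against 6.36% of all tested genes. *Ccr7*, which guides T cells to lymph nodes, was higher without overlap but called only with the block (0.54, adjusted p = 0.182, and 0.0409 with the block). *S1pr1*, needed to leave lymph nodes, was called in neither fit (0.43, adjusted p = 0.402).

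No stem or memory factor was called without the block (20 tested, median 0.15). *Tcf7*, the central factor of stem-like T cells, was high in both groups, at 22020 ± 2454 normalized counts with DMSO (SD, n = 5) and 26890 ± 2549 with ibrutinib (SD, n = 4; 0.29, adjusted p = 0.601). *Eomes* had 2512, 1556, 1879, 2889 and 2847 with DMSO and 1154, 888, 1008 and 1045 with ibrutinib. Its groups did not overlap but its fall was not called (-1.19, SE 0.43, adjusted p = 0.179).

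Some genes of the TCR signal changed in their own transcripts. Of 37 tested genes of the TCR signaling list *Ptpn6* and *Sh2d2a* fell and *Themis* rose (median 0.07). This was 8.11% of the list, against 3.04% of all tested genes. With the block 4 fell and 2 rose, where 9.09% of all tested genes were called. The calls of *Sh2d2a* (-0.36, adjusted p = 0.0367) and *Themis* (0.42, adjusted p = 0.0284) were each lost without any 1 of several libraries (highest adjusted p = 0.153 and 0.141, without ibrutinib D). *Ptpn6*, which encodes the inhibitory phosphatase SHP-1, had 8307, 10440, 10020, 9771 and 8732 normalized counts with DMSO and 5408, 5889, 6768 and 5462 with ibrutinib, without overlap (-0.69, SE 0.10, adjusted p = 0.00185). *Lck* (0.07, adjusted p = 0.879), *Tec* (0.28, adjusted p = 0.683), *Fyn* (-0.23, adjusted p = 0.322) and *Plcg1* (0.07, adjusted p = 0.926) were not called. *Txk*, a Tec family kinase, was not called either (-0.20, adjusted p = 0.81), but its effect differed from the rise of 1.22 in repeat peptide cells (interaction adjusted p = 0.0464).

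Cytokine receptors and NF-kappaB genes fell in part. *Il12rb2*, the inducible IL-12 receptor chain, fell from 2887 ± 373.5 (SD, n = 5) to 1594 ± 340.4 (SD, n = 4; -0.86, adjusted p = 0.00743). It was 1 of 4 that fell among 35 tested in its list (11.4%, against 2.69% of all tested genes), which also include *Il12rb1* and *Socs2*. The call of *Il12rb1* was lost without ibrutinib D (adjusted p = 0.0603) and that of *Socs2* without any 1 of 5 libraries (highest adjusted p = 0.158, without ibrutinib A). *Relb*, a subunit of the alternative NF-kappaB pathway, fell from 1485 ± 183.6 to 838 ± 119 (SD; -0.83, adjusted p = 0.00402). It was 1 of 3 that fell among 20 in its list (15%, against 2.69% of all tested genes). In metabolic lists changes were small: no glycolysis or hypoxia gene of 30 and no ribosome biogenesis or MYC target of 39 was called without the block (medians -0.14 and -0.09). Of 36 sterol and fatty acid genes 1 fell (2.78%, median -0.43), and with the block 7 did, against 2.69% and 6.32% of all tested genes.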

How the data were processed

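OT-I CD8+ T cell RNA was sequenced from 18 libraries, 9 of them of single peptide stimulated cells. The authors trimmed the reads and mapped them to GRCm38 (Ensembl annotation) with STAR 2.7.6a inside RSEM 1.3.1. The deposited expected counts are estimated counts of reads per gene, the deposited TPM values were used only to state levels of cell markers, and the deposited effective lengths served only in an alternative. Expected counts were rounded. Of 45706 genes listed, 45143 matched GENCODE M21 and 27903 protein-coding or lncRNA genes were kept. The 12255 genes that passed filterByExpr were TMM normalized and tested with edgeR 4.0.16 (robust quasi-likelihood, R 4.3.3) in 1 fit of all 4 groups without a block, since the methods name none. The authors used DESeq2 (an alternative here, version 1.42.0). The interaction is the single peptide minus the repeat peptide effect. The scripts were tested on simulated counts.

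Libraries of an experiment were paired in the within-experiment differences and in the fit with the block, but not in the main fit. The edgeR p-values given are therefore unpaired unless the block is named. Single peptide libraries of the same experiment deviated together from their group means (r from 0.365 to 0.479 in 4 of 4), so a fit with experiment as a block was run beside the main one. Within-experiment log2 differences used normalized counts plus 0.5. No library was a copy of another: within the single peptide groups, chi-square of the counts over its degrees of freedom was at least 28.61. Counting error is small at these depths except for genes with a few counts. Principal components used log2 CPM with a prior count of 2. Promoter windows were found in RefSeq for 9529 tested genes, and a gene with several windows counted once.

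Genes named were the called genes with the largest rises and falls that changed alike in experiments A to D, those with the smallest p, called genes of the lists and a panel of T cell genes, with uncalled list genes given where a list did not change. The members, lists and tests were chosen with earlier results of these data known. A few genes are not reported here. Alternatives were DESeq2's size factors and test, the block, other filters and thresholds, an offset for effective length, fits of fewer libraries and each library left out in turn.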

Additional observations from a re-analysis of the deposited data

Results flagged for a closer look

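Many of the 88 tested genes examined here were chosen because they were called in single peptide cells, an effect that is part of the interaction. That choice sets in part how many differed. Among the 88, 30 had ibrutinib effects that differed between single and repeat peptide stimulated cells by the interaction test, against 1.26% of all tested genes (edgeR, adjusted over all genes, difference of log2 fold changes, single minus repeat). Interferon stimulated genes made up 15 of them, all more negative in single peptide cells: *Iigp1* (-3.71), *Gbp2* (-2.82), *Igtp* (-1.98), *Gbp6* (-1.96), *Gbp3* (-1.79), *Gbp4* (-1.56), *Irgm2* (-1.55), *Tgtp1* (-1.50), *Irf1* (-1.47), *Tgtp2* (-1.45), *Irgm1* (-1.25), *Zbp1* (-1.22), *Gbp5* (-1.15), *Gbp7* (-1.15) and *Ifi47* (-1.11). Their relatives *Gm4951* (-4.64) and *Gbp10* (-3.11) differed likewise.

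The differences of *Ccl3* (-4.79), *Serpina3f* (-4.13), *Xcl1* (-3.74), *Ccl4* (-3.16), *Map2* (-2.02), *Arhgef25* (-1.91), *Irf8* (-1.89), *Cd274* (-1.25) and *Relb* (-1.11) were of genes that fell in single peptide cells. Those of *Eomes* (-2.56), *S1pr1* (-1.63), *Txk* (-1.43) and *Prf1* (1.91) were of genes not called in single peptide cells without the block. The difference of *Eomes* (adjusted p = 0.0468) was not called with the block (adjusted p = 0.0812).

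A single library stood apart from its group in 14 of 176 groups of values (7.95%), where chance flags about 1 in 20. Experiment C was the highest DMSO library for *Fos* (1903 normalized counts, next 60.17), *Egr1* (2006, next 753.5) and *Lif* (535.3, next 130), and the highest ibrutinib library for *Fos* (1427, next 67.78) and *Tnfrsf9* (283.8, next 137.7). It was the lowest ibrutinib library for *Eif2ak2* (833.7, next 1000) and *Gm4951* (75.12, next 86.28). Experiment A was the highest ibrutinib library for *Gbp10* (360.3, next 231.4) and the highest DMSO library for *Gbp4* (16940, next 11290). DMSO F was highest for *Prf1* (862.7, next 386.9) and *Il12rb1* (1507, next 1073), DMSO B for *Ctla4* (3893, next 2467), and ibrutinib D for *Xaf1* (794.9, next 579.8) and lowest for *Nfatc1* (5171, next 6202).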

How the results depend on the processing

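The 373 genes called with ibrutinib in single peptide stimulated cells became 202 above 1 log2 unit, 612 with DESeq2's Wald test, 181 in a fit of the 9 single peptide libraries alone, 1114 with the experiment as a replicate block, 1466 with DESeq2 and the block and 1955 (843 higher) in the 8 single peptide libraries of experiments A to D with the block. Leaving out 1 library gave 131 to 391. The 154 genes whose effects differed between stimulations became 350 with DESeq2, 679 with the block, 1021 with both, and 84 to 171 with 1 library left out. Other filters, DESeq2's size factors and the length offset kept both counts within 1.5 times. Among settings chosen after seeing the data, experiments A and C alone gave 11 and 4 genes, B and D alone 0 and 0 in edgeR (687 and 521 at an unadjusted p under 0.05), and the block without experiment C 583.

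PC3 no longer passed with 2000 genes (adjusted p = 0.119), rlog values (0.19) and *Xist* and Y-linked genes removed (0.0952, chosen after seeing the data). It had 1 with the mean of each experiment subtracted as a replicate block, where 0.375 is the smallest value possible for a component alone and PC1 reached it. With 1 library left out PC3 had 0.0536 to 0.914, where no component could pass alone. With the effective length offset the log2 fold change of *Runx1* was -0.01 against 0.89. The causes were not tested. Of the 88 genes examined singly, the block added the calls given beside the results for 8 (*Tox*, *Tbx21*, *Prf1*, *Ccr7*, *Irgm2*, *Ifi47*, *Tgtp1* and *Tgtp2*) and changed no other call of the ibrutinib effect. Of their differences between stimulations the block ended the call of *Eomes* and added 13 (*Cdc6*, *Cenpe*, *Il12rb1*, *Lif*, *Mcm10*, *Mki67*, *Nipa1*, *Plek*, *Rgs16*, *Rtp4*, *Tbx21*, *Tcf7* and *Tnf*). Depth limits genes with few counts, such as *Ccl3* and *Arhgef25*.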

Other observations

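Several of the largest falls lay outside the gene lists. *Lif*, which encodes leukemia inhibitory factor, had 130, 117.9, 535.3, 112.9 and 125.2 normalized counts with DMSO in experiments A, B, C, D and F and 8.533, 10.3, 21.33 and 19.51 with ibrutinib in A to D. The groups did not overlap (log2 fold change -3.76, SE 0.71, edgeR adjusted p = 0.00706). *Rgs16*, a regulator of G protein signaling, had 156.2, 47.6, 151.7, 126.8 and 83.07 against 9.481, 23.42, 28.75 and 8.216, also without overlap (-2.67, adjusted p = 0.00185). *Plek*, which encodes pleckstrin, a protein kinase C substrate of blood cells, fell from 2171 ± 284.3 (SD, n = 5) to 825.9 ± 252.7 (SD, n = 4; -1.39, adjusted p = 0.000523).

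*Serpina3f*, a serine protease inhibitor gene with close relatives between which shared reads were divided by estimate, had 766.1, 420.8, 1206, 521.1 and 296.5 normalized counts with DMSO and 73.01, 51.52, 111.3 and 61.62 with ibrutinib (-3.11, adjusted p = 0.00235). *Gbp10* fell from 1700 ± 630.2 (SD, n = 5) to 257.4 ± 68.92 (SD, n = 4; -2.72, adjusted p = 0.000507), with the same limit. *Map2*, known as a microtubule associated protein of neurons, fell from 59.41 ± 10.72 to 12.54 ± 2.876 (SD; -2.24, adjusted p = 0.00185). *Arhgef25*, a guanine nucleotide exchange factor, fell from 18.96 ± 1.805 to 2.832 ± 1.273 (SD; -2.67, adjusted p = 0.00137). Both *Map2* and *Arhgef25* passed the mean count threshold only through the repeat peptide libraries.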
